A study of Mus musculus with 24 samples.

Results

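The integrins and cadherins are the genes whose symbol in the deposited expression table is *Itga*, *Itgb* or *Cdh* followed by the subunit or member name. Of the 49452 genes listed, 48 met this rule, namely 18 integrin alpha subunits, 8 integrin beta subunits and 22 cadherins. RNA was sequenced from 24 cultures of primary (1°) cells of the stromal-vascular fraction (SVF, the cells left once the mature adipocytes are removed), taken from male C57BL/6 mice aged 6 to 8 weeks. The cells came from brown adipose tissue (BAT) or epididymal visceral white adipose tissue (vWAT), were nucleofected with a non-targeting siRNA (siCtrl, written siKO in the sample titles) or an siRNA against the long intergenic non-coding RNA *H19* (siH19, written siH19_3 in the titles), and were harvested at day 0 (d0) or at day 3 of differentiation (d3). This gave 8 groups of 3 libraries. Growth medium was shared, and differentiation was induced with insulin, dexamethasone, rosiglitazone and IBMX. The agents indomethacin and triiodothyronine are listed for BAT alone, whether added or in exchange being unclear, and the medium that followed held rosiglitazone for vWAT and triiodothyronine for BAT, so that depot and medium cannot be told apart at d3. BAT tissue was pooled where cell numbers were short, the siRNA is a transient knockdown, and nothing says that the 3 libraries of a group came from separate animals, so the p-values measure the spread between libraries, which may be technical.

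Integrins are receptors of 1 alpha and 1 beta subunit that bind the extracellular matrix outside the cell and, through talin and kindlin, the actin cytoskeleton inside it. The alpha subunit largely sets the ligand. Alpha5 and alphaV bind the RGD sequence of fibronectin and vitronectin, alpha3, alpha6 and alpha7 bind laminins, alpha1, alpha2, alpha10 and alpha11 bind collagens, and alphaD, alphaE, alphaL, alphaM and alphaX belong to leukocytes. Cadherins hold neighbouring cells together by calcium-dependent contacts between like molecules, linked to actin through catenins. Adipocyte precursors sit flat in a fibronectin-rich matrix, whereas mature adipocytes are round and wrapped in a laminin-rich basement membrane.

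Values are FPKM (mapped fragments scaled by transcript length and library size), which are scaled by gene length, so that levels of different genes can be set side by side. Of the 48 genes, 27 reached 1 FPKM in at least 3 libraries and 12 did so in all 24, while 17 stayed below 1 FPKM in every library. These 17 were 14 cadherins, E-cadherin (*Cdh1*) of epithelia among them, and the 3 alpha subunits *Itga4*, *Itgae* and *Itgal*, and 4 of the cadherins lay below 0.1 FPKM throughout. *Itgb6*, *Itgb7*, *Itgax* and *Cdh26* reached 1 FPKM in 1 or 2 libraries. A group mean of at least 10 FPKM was found for 13 genes, 8 of them alpha subunits, 3 beta subunits and 2 cadherins.

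In BAT precursors (siCtrl, d0) both subunits of the main fibronectin receptor stood above all other members. *Itgb1*, the beta subunit that pairs with most matrix-binding alpha subunits, was at 508 ± 10.4 FPKM (SD, n = 3, as for all values given with ±). *Itga5*, its partner in the main fibronectin receptor, was at 318 ± 5.72 FPKM and made up 61.1% of the summed FPKM of all alpha subunits. *Itgav* was at 91.2 ± 6.13 and *Itgb5*, which forms a vitronectin receptor with alphaV, at 81.3 ± 8.75 FPKM. *Cdh11*, the cadherin typical of mesenchymal cells, was at 71.3 ± 2.72 and *Cdh2* (N-cadherin) at 11.3 ± 0.902 FPKM. The precursors of vWAT had *Itgb1* at 351 ± 12.6, *Itga5* at 347 ± 13.5, *Itgb5* at 91.3 ± 1.198, *Cdh11* at 79.1 ± 1.37 and *Itgav* at 61.6 ± 3.01 FPKM, so that the same 5 genes led in both depots.

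**Figure D1:**
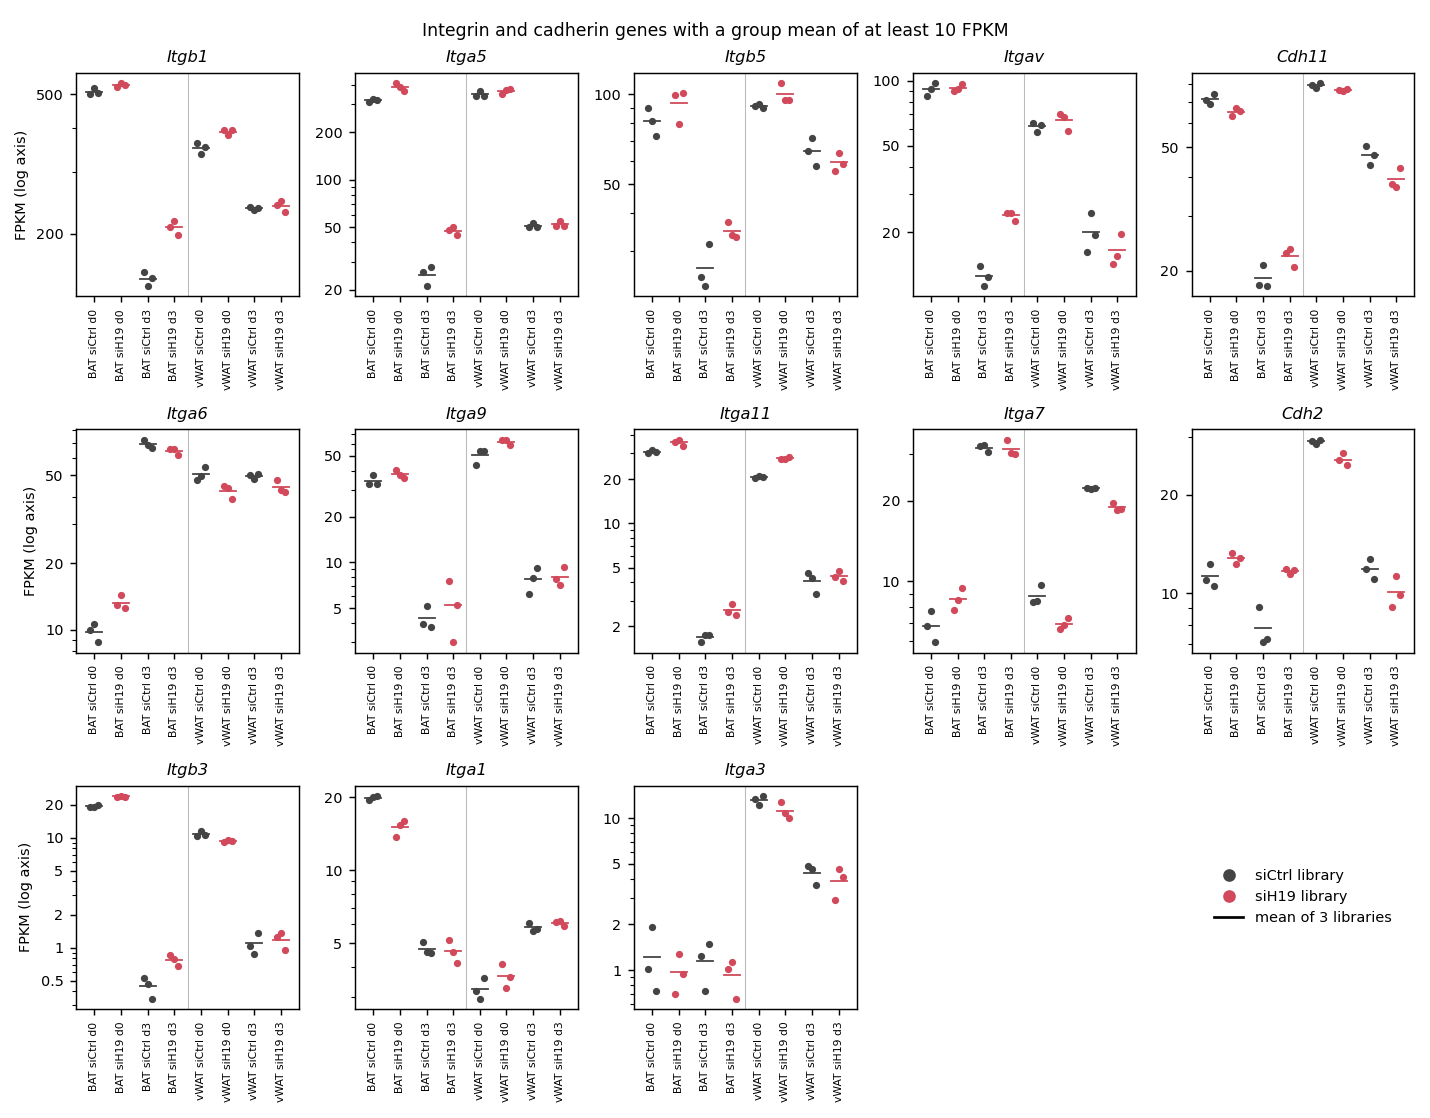
FPKM (log axis, scaled separately for each gene) of the 13 integrin and cadherin genes with a group mean of at least 10 FPKM, in each of the 24 libraries (points) and as group means of 3 libraries (lines), with siCtrl in grey, siH19 in red, BAT on the left of each panel and vWAT on the right. *Itga5* stands at 312 to 323 FPKM in BAT siCtrl d0 and at 21.1 to 28.1 at d3, with the siH19 d3 libraries at 44.6 to 49.8, and *Itga6* and *Itga7* are higher at d3 in BAT.

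The targeted RNA and the cell types were checked first. *H19* was lower with siH19 in all 4 comparisons (adjusted p = 0.0013, 0.0022, 0.0096 and 0.0046 in the order given), at 89.8 ± 8.76 against 13.7 ± 2.79 FPKM in BAT d3, 130.3 ± 27.1 against 4.36 ± 1.33 in BAT d0, 8.59 ± 0.361 against 0.528 ± 0.3795 in vWAT d3 and 11.7 ± 0.528 against 1.21 ± 0.566 in vWAT d0. Depth is known only relative to the other libraries, from steps between low values, at 0.825 to 0.983 in BAT and 1.02 to 1.17 in vWAT. The summed FPKM of 7 adipocyte markers was 3135 to 3408 in BAT siCtrl d0 and 37576 to 39282 at d3, and 10 of 11 macrophage markers reached a mean of 1 FPKM in BAT siCtrl d0 and d3, with sums of 162 to 201 and 158 to 193. The macrophage sums cover markers that fell and markers that rose, as given with the comparison of days. In bulk RNA, fewer cells of a type and less RNA per cell cannot be told apart.

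Loss of *H19* in BAT cells at d3 went with higher RNA of subunits of the fibronectin and vitronectin receptors. Of the 48 genes 16 passed the filter (1 FPKM in at least 3 of the 6 libraries), and 6 were higher with siH19, namely *Itga5*, *Itgav*, *Itgad*, *Cdh2*, *Itgb1* and *Itga11*, while none was lower. A call required an adjusted p (limma on log2(FPKM + 1), Benjamini-Hochberg across every gene tested) below 0.05 and a fold change of at least 1.3. By this rule 8.57% of all 12500 genes tested were called, 6.39% higher and 2.18% lower. The libraries of the 2 groups did not overlap for 9 of the 16, and for 37.2% of all genes tested. The median log2 fold change was 0.21 over the 16 and 0.05 over all genes tested. Trimmed-mean (TMM) rescaling of the libraries moved that split from 799 higher and 272 lower genes to 545 and 516, and still called 5 of the integrins and cadherins, none of them lower. Log2 fold changes on this scale understate the change of low genes.

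Of the 3 RGD-binding alpha subunits tested, *Itga5* and *Itgav* were higher with siH19. *Itga5* (chr15:103344286-103366763 of GRCm38, minus strand) was at 25.8, 21.1 and 28.1 FPKM in the 3 siCtrl libraries and at 48.1, 49.8 and 44.6 in the 3 siH19 libraries, a 1.899-fold higher mean (log2 fold change 0.91, SE 0.11, adjusted p = 0.0043). All 3 siH19 values exceeded all 3 siCtrl values. *Itgav* (chr2:83724397-83806916, plus strand), whose product pairs with several beta subunits, was at 13.96, 11.3 and 12.5 in siCtrl and 24.5, 24.6 and 22.6 FPKM in siH19, again without overlap (1.901-fold, log2 fold change 0.88, SE 0.09, adjusted p = 0.0029). *Itga2b*, the platelet alpha subunit and the third of this class that could be tested, was at 2.75, 4.199 and 2.67 in siCtrl and 2.504, 2.71 and 1.54 FPKM in siH19 and was not called (log2 fold change -0.37, SE 0.20, adjusted p = 0.26).

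Among the beta subunits, *Itgb1* (chr8:128685654-128733200, plus strand) was at 155, 141 and 149.8 FPKM in siCtrl and 208, 218 and 199 in siH19 (1.402-fold, log2 fold change 0.48, SE 0.05, adjusted p = 0.0033), with all siH19 libraries above all siCtrl libraries. *Itgb5* was at 24.5, 22.8 and 31.6 in siCtrl and 37.5, 33.99 and 33.4 in siH19 and missed the threshold although the libraries did not overlap (log2 fold change 0.41, SE 0.12, adjusted p = 0.069). *Itgb3* failed the filter in this comparison, at 0.532, 0.466 and 0.344 FPKM in siCtrl and 0.854, 0.7899 and 0.683 in siH19. *Itgb2* passed it only through the siCtrl libraries and is described with the leukocyte genes.

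Of the collagen-binding subunits *Itga11* (chr9:62677826-62783982, plus strand), a receptor of fibroblasts for fibrillar collagen, was at 1.56, 1.76 and 1.74 FPKM in siCtrl and 2.51, 2.84 and 2.399 in siH19 (log2 fold change 0.42, SE 0.10, adjusted p = 0.032). Its log2 fold change on the log2(FPKM + 1) scale was the smallest and its adjusted p the highest of the 6. The call was lost when any 1 of the 6 libraries was left out (adjusted p = 0.055 to 0.086) and under TMM scaling, where the fold fell below 1.3 at an adjusted p of 0.048. *Itga1* was at 5.05, 4.62 and 4.56 in siCtrl and 5.16, 4.61 and 4.16 in siH19 and its groups overlapped (log2 fold change -0.03, SE 0.10, adjusted p = 0.88).

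The 3 laminin-binding alpha subunits were tested and none was called. *Itga6* was at 72.6, 68.3 and 66.7 FPKM in siCtrl and 65.7, 66.1 and 61.6 in siH19 (log2 fold change -0.10, SE 0.05, adjusted p = 0.24), and *Itga7*, the laminin receptor subunit also known from muscle, was at 32.2, 32.5 and 30.5 in siCtrl and 33.96, 30.4 and 29.98 in siH19 (log2 fold change -0.01, SE 0.06, adjusted p = 0.91). *Itga3* was near 1 FPKM in both groups, at 1.25, 0.734 and 1.49 in siCtrl and 1.01, 1.13 and 0.651 in siH19. Among cadherins, *Cdh2* (chromosome 18) was at 9.09, 7.07 and 7.25 FPKM in siCtrl and 11.8, 11.4 and 11.7 in siH19, with no overlap (1.49-fold, log2 fold change 0.53, SE 0.10, adjusted p = 0.017). Its call was lost without siCtrl library 2 (adjusted p = 0.061), siCtrl library 3 (0.055) or siH19 library 1 (0.054). *Cdh11* was at 18.1, 20.8 and 17.9 in siCtrl and 22.9, 23.5 and 20.6 in siH19 and was not called (log2 fold change 0.23, SE 0.08, adjusted p = 0.11).

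Cell type markers moved in the same comparison. The summed FPKM of 6 precursor markers was 713 to 814 in BAT siCtrl d3 and 1024 to 1134 in siH19, with 2 of 6 called higher, against 6.39% of all genes. That of 5 mural (smooth muscle and pericyte) markers was 244 to 327 and 544 to 656, with 3 tested and *Acta2* alone called higher. The adipocyte marker sum was 37576 to 39282 and 34248 to 36568, with none of 7 called. The macrophage marker sum was 158 to 193 and 95.9 to 110.0, with 5 of 9 tested called lower, against 2.18% of all genes. Each pair of ranges was apart, and the part of these shifts in the integrin and cadherin differences was not tested.

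**Figure D2:**
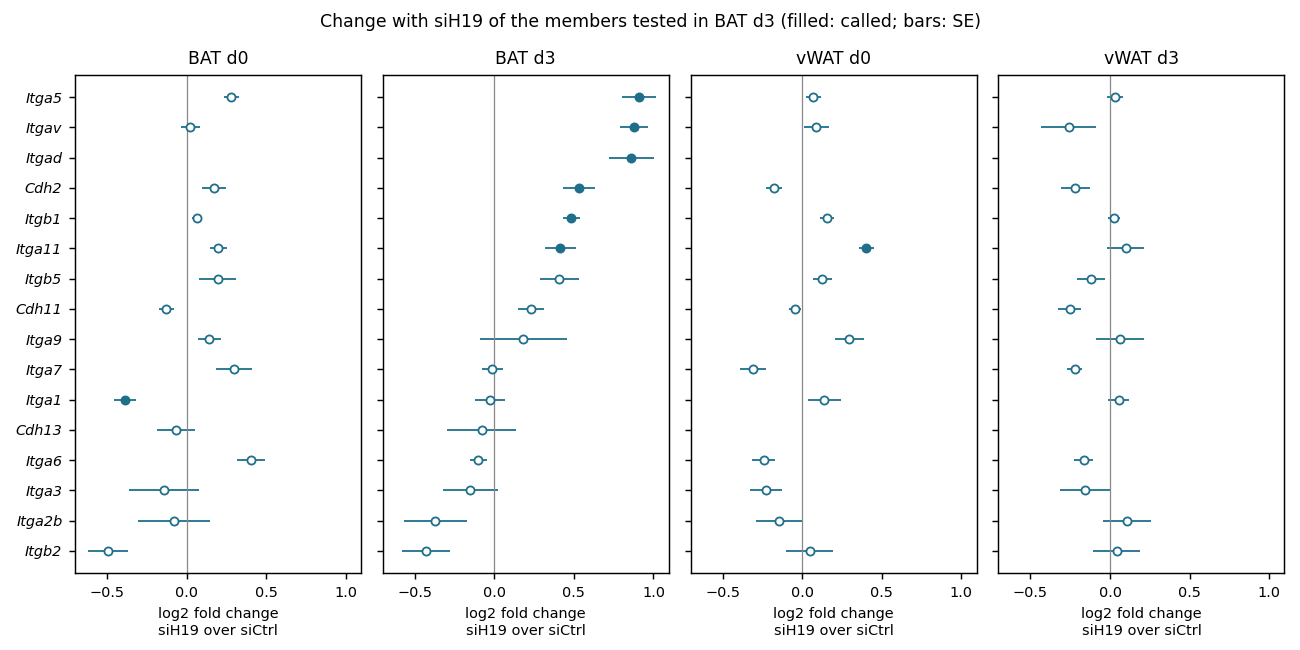
Log2 fold change (siH19 over siCtrl, on the log2(FPKM + 1) scale) of the 16 integrin and cadherin genes tested in BAT d3, with SE bars, in each of the 4 comparisons; filled points were called and open points were not, and a gene with no point failed the filter there. In BAT d3 6 genes are filled, from *Itga5* (0.91) to *Itga11* (0.42), against 1 in BAT d0, 1 in vWAT d0 and none in vWAT d3.

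Promoter sequences from RefSeq (GRCm38.p6, 250 bases before to 50 after the annotated start, counted from base 1 at the 5′ end) were found for 4 of the 6 genes called in BAT d3 and are printed to show what the start regions of genes that moved together hold in common. They run 5′ to 3′ on the strand of the gene, at chr15:103366742-103367041 (minus strand) for *Itga5*, chr2:83724147-83724446 for *Itgav*, chr8:128685404-128685703 for *Itgb1* and chr9:62677605-62677904 for *Itga11* (all plus strand). Capitals mark GC boxes (GGGCGG or its reverse complement CCGCCC).
Itga5: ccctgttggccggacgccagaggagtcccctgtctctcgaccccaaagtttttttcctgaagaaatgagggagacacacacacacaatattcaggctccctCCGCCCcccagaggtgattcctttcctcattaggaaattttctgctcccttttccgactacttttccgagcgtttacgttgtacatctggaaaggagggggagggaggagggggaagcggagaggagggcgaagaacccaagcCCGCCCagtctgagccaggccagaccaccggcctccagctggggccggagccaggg
Itgav: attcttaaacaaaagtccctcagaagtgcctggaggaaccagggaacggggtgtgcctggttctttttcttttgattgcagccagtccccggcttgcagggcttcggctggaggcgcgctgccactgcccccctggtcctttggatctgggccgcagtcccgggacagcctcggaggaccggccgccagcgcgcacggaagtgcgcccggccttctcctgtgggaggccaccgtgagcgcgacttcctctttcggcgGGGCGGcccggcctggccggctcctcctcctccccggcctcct
Itgb1: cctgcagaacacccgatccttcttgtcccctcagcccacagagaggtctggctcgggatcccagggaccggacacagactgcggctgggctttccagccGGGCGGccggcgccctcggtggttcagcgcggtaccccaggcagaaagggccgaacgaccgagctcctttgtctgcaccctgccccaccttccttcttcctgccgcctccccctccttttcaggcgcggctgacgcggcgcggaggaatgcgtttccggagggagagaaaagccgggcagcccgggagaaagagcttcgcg
Itga11: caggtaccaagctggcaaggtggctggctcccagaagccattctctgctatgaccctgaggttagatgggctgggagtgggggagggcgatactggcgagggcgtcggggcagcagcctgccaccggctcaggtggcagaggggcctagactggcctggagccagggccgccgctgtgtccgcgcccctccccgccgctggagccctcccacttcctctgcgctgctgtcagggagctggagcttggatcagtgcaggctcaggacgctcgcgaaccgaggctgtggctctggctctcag
The GC box was found at 2 places in *Itga5* (from bases 102 and 245), at 1 in *Itgav* (base 258), at 1 in *Itgb1* (base 100) and not in *Itga11*. Of all 27025 promoters listed, 35.9% held it, so that its presence in 3 of 4 is a description of a common element. All 4 windows were richer in G and C (58.7% to 68%) than the median promoter (52.7%). A TATA box (TATAAA on either strand) was in none of the 4 and in 14.2% of all promoters. *Itgb1* alone held GGAATG, the core recognised by TEAD factors (either strand, in 14.6% of all promoters), from base 244, and none of the 4 held the AP-1 sequence TGANTCA (in 7.93%). These are letter matches, and binding was not measured.

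In the other settings siH19 left the integrins and cadherins largely below the threshold. Markers moved there too. The adipocyte marker sum was 3135 to 3408 FPKM with siCtrl and 1583 to 2115 with siH19 in BAT d0, and 4087 to 4095 and 2412 to 2721 in vWAT d0, with 5 of 7 markers called lower in each. The macrophage marker sum in BAT d0 was 162 to 201 and 119 to 124, with 4 of 10 tested called lower. The part of these shifts in the d0 values below was not tested. In BAT precursors at d0, 20 were tested and 1 was called, against 1.94% of 12651 genes overall (0.617% higher, 1.32% lower). It was *Itga1*, the alpha subunit of a collagen and laminin receptor, at 19.5, 20.0005 and 20.2 FPKM in siCtrl and 13.7, 15.3 and 15.98 in siH19 (log2 fold change -0.39, SE 0.07, adjusted p = 0.041). All siH19 libraries lay below all siCtrl libraries, but the call was lost whichever of the 6 libraries was left out (adjusted p = 0.081 to 0.15). In BAT d0 the groups did not overlap for 26.7% of all genes tested. *Pelo* lies within *Itga1* on the same strand, and the counting could have split reads between them. *Itga5* at d0 was at 312, 323 and 318 FPKM in siCtrl and 408, 388 and 364 in siH19, with an adjusted p of 0.036 but a log2 fold change of 0.28, short of 1.3-fold. *Itgb3*, the beta subunit of the classical vitronectin receptor, was at 18.98, 19.1 and 19.98 in siCtrl and 23.6, 24.02 and 23.6 in siH19 (log2 fold change 0.28, adjusted p = 0.039), also short of it. *Itgav* was at 85.004, 91.4 and 97.3 in siCtrl and 89.4, 91.9 and 96.6 in siH19 and overlapped (log2 fold change 0.02). *Itga6* was at a mean of 9.81 FPKM in siCtrl and 13.3 in siH19, with no overlap, and was not called (log2 fold change 0.41, SE 0.09, adjusted p = 0.071).

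In vWAT precursors at d0, 22 were tested and 1 was called, against 1.53% of 13063 genes (0.329% higher, 1.2% lower). *Itga11* was at 20.5, 20.9 and 20.6 FPKM in siCtrl and 27.3, 27.5 and 28.2 in siH19 (log2 fold change 0.40, SE 0.05, adjusted p = 0.014), all siH19 libraries being higher. The call was lost without any 1 of the 3 siCtrl libraries or without siH19 library 2 (adjusted p = 0.064, 0.075, 0.064 and 0.06). In vWAT d0 the groups did not overlap for 24.5% of all genes tested. In vWAT at d3 limma called none of the 20 tested, and 3 of them had an unadjusted p under 0.05. Only 0.0305% of 13097 genes were called there at all, with 1315 at an unadjusted p under 0.05. *Itga5* was at 50.1, 52.8 and 49.9 FPKM in siCtrl and 50.7, 54.9 and 50.6 in siH19 of vWAT d3, *Itgb1* at 238, 234 and 236 in siCtrl and 241, 248 and 231 in siH19, and *Itgav* at 16.2, 24.7 and 19.3 in siCtrl and 14.3, 15.6 and 19.7 in siH19. *Itgav* thus had a lower mean with siH19 in vWAT, within overlapping libraries (log2 fold change -0.26, SE 0.17, adjusted p = 0.67), where it was higher in BAT.

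Whether siH19 acted differently in the depots at d3 was tested as the interaction of depot and siRNA over the 12 d3 libraries (adjusted p under 0.05, no minimum fold). Of 22 genes tested 7 were called, against 10.5% of 13762 genes overall. Among the 7, *Itgad* was below 1 FPKM in every vWAT library, and *Itgam* was near or below 1 FPKM in every BAT library. The siH19 difference was more positive in BAT than in vWAT for *Itgav* (difference of log2 fold changes 1.14, SE 0.21, adjusted p = 0.0078), *Itgad* (0.95, SE 0.18, adjusted p = 0.008), *Itga5* (0.88, SE 0.13, adjusted p = 0.0028), *Cdh2* (0.75, SE 0.14, adjusted p = 0.0084), *Cdh11* (0.48, SE 0.11, adjusted p = 0.025) and *Itgb1* (0.46, SE 0.06, adjusted p = 0.0026), and more negative for *Itgam* (-0.55, SE 0.15, adjusted p = 0.04). *Itgam* kept its call only when the library left out was BAT siH19 d3 library 1 or vWAT siCtrl d3 library 2 (adjusted p over the 12 fits = 0.016 to 0.093). *Cdh11* kept it without BAT siCtrl d3 library 1 or 2, BAT siH19 d3 library 3, vWAT siCtrl d3 library 2 or vWAT siH19 d3 library 3 and lost it without each of the other 7 (adjusted p = 0.019 to 0.062). TMM scaling lost *Cdh11* and moved the split of all genes called from 966 positive and 485 negative to 595 and 808. Cell type markers moved in this test too, against 7.02% of all genes called positive and 3.52% negative. Called more negative in BAT were 7 of 10 macrophage and 5 of 7 adipocyte markers tested. Called more positive were 2 of 6 precursor and 2 of 4 mural markers. The part of these shifts in the 7 calls was not tested.

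Within BAT, the interaction of day and siRNA over 12 libraries called 6 of 21 genes tested, against 9.06% of 13575 genes. Among the 6, *Itgad* was below 1 FPKM in every d0 library. The siH19 difference at d3 exceeded that at d0 for *Itgav* (difference 0.86, SE 0.11, adjusted p = 0.0014), *Itgad* (0.78, SE 0.17, adjusted p = 0.02), *Itga5* (0.63, SE 0.13, adjusted p = 0.012), *Itgb1* (0.42, SE 0.06, adjusted p = 0.0023) and *Cdh11* (0.36, SE 0.10, adjusted p = 0.042), and it was lower at d3 for *Itga6* (-0.51, SE 0.10, adjusted p = 0.013). The log2 fold change of *Itga6* with siH19 was 0.41 at d0 (adjusted p = 0.071) and -0.10 at d3 (adjusted p = 0.24), neither being called, so that most of this difference lay at d0. *Cdh11* kept its call only when the library left out was siCtrl d3 library 2 or siH19 d3 library 3 (adjusted p over the 12 fits = 0.017 to 0.097), and *Itgad* lost it without BAT siCtrl d3 library 2 (adjusted p = 0.053), with a pseudocount of 0.1 (0.125) and without a filter. With TMM scaling the split of all genes called moved from 1058 positive and 172 negative to 482 and 327, and *Cdh11* was lost (adjusted p = 0.18). Markers called positive here were 5 of 7 adipocyte, 2 of 6 precursor and 2 of 5 mural markers tested, against 7.79% of all genes. None of 10 macrophage markers was called. The part of these shifts in the 6 calls was not tested. The BAT siCtrl d3 libraries serve in this comparison, in the siH19 comparison at d3 and in the comparison of days below.

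From d0 to d3 RNA of the fibronectin and vitronectin receptor subunits *Itga5*, *Itgav*, *Itgb1*, *Itgb3* and *Itgb5* fell in BAT siCtrl cells, and RNA of the laminin-binding subunits *Itga6* and *Itga7* rose. Of the 20 genes tested 13 were lower and 3 higher at d3, against 65.2% of 13001 genes called overall (29.9% higher, 35.3% lower). The median log2 fold change of the 20 was -1.25 and that of all genes -0.10. *Itgb3*, *Cdh22*, *Cdh5* and *Itgad* passed the filter only through the day at which they were high, so that they had to differ. Markers of stromal cells moved with the day. The summed FPKM of the 6 precursor markers was 3385 to 3622 at d0 and 713 to 814 at d3 and that of the 5 mural markers 1494 to 1647 and 244 to 327, with 6 of 6 and 5 of 5 called lower, and all 7 adipocyte markers were called higher. Of 10 macrophage markers tested 6 were called lower and 2 higher (*C1qa* and *C1qc*). The part of these shifts in the integrin and cadherin changes was not tested.

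Of the 3 RGD-binding alpha subunits tested 2 fell, while *Itga2b* was at 4.37, 2.16 and 4.63 at d0 and 2.75, 4.199 and 2.67 FPKM at d3 and was not called (log2 fold change -0.14, SE 0.25, adjusted p = 0.64). *Itga5* went from 312, 323 and 318 FPKM at d0 to 25.8, 21.1 and 28.1 at d3, a 12.7-fold lower mean (log2 fold change -3.63, SE 0.10, adjusted p = 1.9e-07). *Itgav* went from 85.004, 91.4 and 97.3 to 13.96, 11.3 and 12.5 FPKM (7.26-fold lower, log2 fold change -2.77, SE 0.09, adjusted p = 3.5e-07). Their beta partners fell too. *Itgb3* went from 18.98, 19.1 and 19.98 to 0.532, 0.466 and 0.344 FPKM (log2 fold change -3.82, SE 0.08, adjusted p = 7.7e-08), *Itgb5* from 90.001, 81.3 and 72.5 to 24.5, 22.8 and 31.6 (log2 fold change -1.60, SE 0.13, adjusted p = 4e-05) and *Itgb1* from 501, 519.7 and 503 to 155, 141 and 149.8 (3.42-fold lower, log2 fold change -1.77, SE 0.04, adjusted p = 1.2e-07). *Itga9*, which binds tenascin and related ligands, went from 32.5, 37.3 and 32.8 to 3.95, 5.19 and 3.76 FPKM (log2 fold change -2.74, SE 0.12, adjusted p = 1.4e-06). No d3 library of these genes reached a d0 library, but the 2 days did not overlap for 79.3% of all genes tested.

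Of the collagen-binding subunits *Itga11* fell from 30.1, 31.5 and 30.7 to 1.56, 1.76 and 1.74 FPKM (18.3-fold lower, log2 fold change -3.57, SE 0.07, adjusted p = 5.3e-08) and *Itga1* from 19.5, 20.0005 and 20.2 to 5.05, 4.62 and 4.56 (log2 fold change -1.87, SE 0.06, adjusted p = 5e-07). *Cdh11* fell from 71.03, 68.8 and 74.2 to 18.1, 20.8 and 17.9 FPKM (log2 fold change -1.86, SE 0.07, adjusted p = 7.8e-07), *Cdh22*, a cadherin best known from brain, from 3.39, 2.97 and 3.19 to 0.0773, 0.0652 and 0.0607 (log2 fold change -1.97, SE 0.08, adjusted p = 1.1e-06), and *Cdh2* from 11.002, 12.3 and 10.5 to 9.09, 7.07 and 7.25 (log2 fold change -0.48, SE 0.11, adjusted p = 0.0058).

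The laminin-binding *Itga6* and *Itga7* rose instead. *Itga6* (chr2:71745616-71858416, plus strand) went from 9.96, 10.7 and 8.78 FPKM at d0 to 72.6, 68.3 and 66.7 at d3, a 7.06-fold higher mean (log2 fold change 2.70, SE 0.08, adjusted p = 2.3e-07). *Itga7* (chr10:128933813-128958277, plus strand) went from 6.79, 7.77 and 5.903 to 32.2, 32.5 and 30.5 FPKM (4.65-fold higher, log2 fold change 2.07, SE 0.09, adjusted p = 2e-06). *Mettl7b*, on the opposite strand, was at 0.266 FPKM at d0 and 3.16 at d3. Its annotation shares only the last base of *Itga7* (chr10:128958277). *Itga3* was at 1.02, 1.93 and 0.726 at d0 and 1.25, 0.734 and 1.49 at d3 FPKM, without a called difference. The alpha subunits together went from a mean of 521 to 161 FPKM, within which *Itga5* went from 61.1% to 15.5%, *Itga6* from 1.88% to 43.02% and *Itga7* from 1.31% to 19.7%. *Itgb1* held 82.8% of the summed beta subunit FPKM at d0 and 83.5% at d3.

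**Figure D3:**
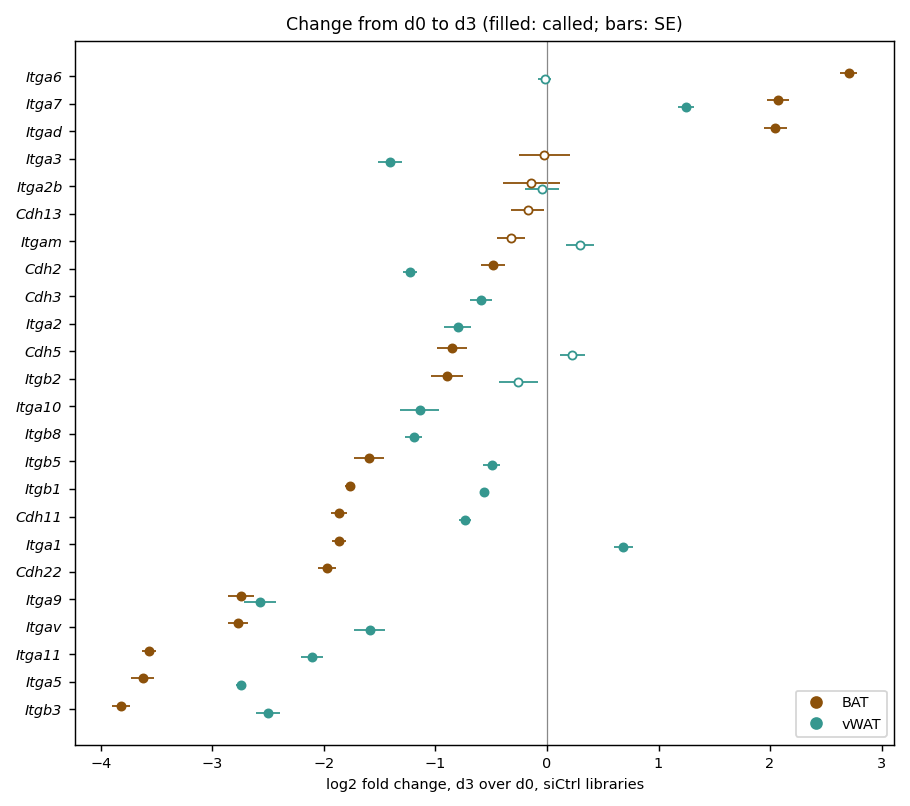
Log2 fold change from d0 to d3 (on the log2(FPKM + 1) scale) in the siCtrl libraries of BAT (brown) and vWAT (green) for the integrin and cadherin genes tested in either, with SE bars; filled points were called. *Itga5*, *Itgb3*, *Itga11*, *Itgav* and *Itga9* lie far to the left in both depots, *Itga6* lies at 2.70 in BAT and at -0.02 in vWAT, and *Itga1* lies on opposite sides.

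In vWAT siCtrl cells 21 genes were tested, of which 14 were lower and 2 higher at d3, against 50.3% of 13368 genes overall (26.3% higher, 23.9% lower). *Itga5* fell from 342, 363 and 338 to 50.1, 52.8 and 49.9 FPKM (6.82-fold lower, log2 fold change -2.75, SE 0.04, adjusted p = 1.1e-07), *Itga9* from 43.6, 54.1 and 54.1 to 6.18, 7.87 and 9.15 (log2 fold change -2.57, SE 0.15, adjusted p = 1.2e-05) and *Itgb3* from 10.3, 11.5 and 10.7 to 1.03, 0.884 and 1.37 (log2 fold change -2.50, SE 0.11, adjusted p = 3.3e-06). *Itga11* fell from 20.5, 20.9 and 20.6 to 4.58, 4.26 and 3.34 FPKM (log2 fold change -2.11) and *Itgav* from 63.996, 58.3 and 62.7 to 16.2, 24.7 and 19.3 (log2 fold change -1.59). *Itga7* rose from 8.34, 8.47 and 9.73 to 22.4, 22.2 and 22.3 FPKM (2.52-fold higher, log2 fold change 1.25, SE 0.07, adjusted p = 1.1e-05). *Itga6* was at 47.5, 49.7 and 54.4 FPKM at d0 and 50.2, 48.03 and 50.9 at d3, with overlapping libraries (log2 fold change -0.02, SE 0.06, adjusted p = 0.77). *Itga1* rose from 3.17, 2.96 and 3.601 to 6.04, 5.62 and 5.75 FPKM (log2 fold change 0.68, SE 0.08, adjusted p = 0.00044), against its fall in BAT. *Itgb1* fell from 362, 337 and 353 to 238, 234 and 236 FPKM (1.49-fold lower). *Cdh2* fell from 29.2, 28.7 and 29.5 to 11.8, 12.7 and 11.03 (log2 fold change -1.23) and *Itga3* from 13.4, 12.2 and 13.996 to 4.86, 4.62 and 3.64 FPKM (log2 fold change -1.41). With these falls the sum of 8 mesothelial or epithelial markers was 149 to 180.2 at d0 and 44.2 to 59.1 FPKM at d3, with 6 of 7 tested called lower, and their part in the falls of *Itga3*, *Itgb8* and *Cdh3* was not tested. All 7 adipocyte markers were called higher, and of 6 precursor markers 3 were called lower and 2 higher. The macrophage marker sum was 383 to 431 at d0 and 645 to 701 FPKM at d3, with 5 of 11 called higher and 4 lower. The part of these shifts in the vWAT changes was not tested either.

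The interaction of depot and day in siCtrl cells called 20 of 24 genes tested, against 53.0% of 14111 genes. Among the 20, *Itgad* and *Cdh22* passed the filter only through BAT siCtrl d3 and BAT siCtrl d0, so that they had to differ. The difference was widest for *Itga6*, whose change from d0 to d3 was higher in BAT by 2.72 on the log2 scale (SE 0.10, adjusted p = 7.8e-09), and for *Itga1*, whose change was lower in BAT (-2.55, SE 0.10, adjusted p = 8.7e-09). The fall was also larger in BAT for *Itgb1* (-1.20), *Itga11* (-1.46), *Itgb3* (-1.32), *Itgav* (-1.18), *Cdh11* (-1.13), *Itgb5* (-1.10) and *Itga5* (-0.88). *Itga9* fell in both depots and its interaction was not called (-0.17, SE 0.20, adjusted p = 0.52). In the same test 6 of 6 precursor markers and 9 of 11 macrophage markers were called more negative in BAT. All 7 adipocyte markers and 5 of 7 mesothelial or epithelial markers were called more positive. The part of these marker shifts in the integrin and cadherin interactions was not tested.

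With siH19 the days were compared in the same way. In BAT siH19 cells 20 were tested, with 14 lower and 3 higher at d3, against 60.6% of 12962 genes (30.8% higher, 29.8% lower), and in vWAT siH19 cells 22 were tested, with 14 lower and 3 higher, against 52.7% of 13357 genes (28.2% higher, 24.5% lower). *Itgb2*, *Itgb3*, *Itga2*, *Cdh22*, *Itgad* and *Cdh5* in BAT and *Itga2* in vWAT passed the filter through 1 day only, as *Itga2* did in vWAT siCtrl. In BAT, *Itga5* went from 408, 388 and 364 to 48.1, 49.8 and 44.6 FPKM (8.14-fold lower, log2 fold change -3.00, SE 0.06, adjusted p = 7.9e-08), *Itgav* from 89.4, 91.9 and 96.6 to 24.5, 24.6 and 22.6 (3.88-fold lower) and *Itga6* from 12.9, 14.4 and 12.6 to 65.7, 66.1 and 61.6 (4.85-fold higher). *Itgb3* and *Itga11* fell by 3.8 and 3.35 on the log2 scale, and *Itga9* and *Cdh22* by 2.70 and 2.05. *Cdh2* was at 13.3, 12.3 and 12.9 at d0 and 11.8, 11.4 and 11.7 at d3 FPKM and was not called (adjusted p = 0.12). *Itga2b* was called lower at d3 (3.02 to 3.52 against 1.54 to 2.71 FPKM, log2 fold change -0.43, SE 0.16, adjusted p = 0.044), but not when any 1 library other than siH19 d3 library 2 was left out (adjusted p over the 6 fits = 0.029 to 0.11). Leaving out any 1 siH19 d0 library lowered the count in BAT from 17 to 11, because 5 genes that passed only through d0 could then not be tested and *Itga2b* was lost. In vWAT siH19, *Itga9*, *Itga5*, *Itga11*, *Itgb3* and *Itgav* fell by 2.80, 2.79, 2.41, 2.25 and 1.94, and *Itga7*, *Itga1* and *Itgam* rose by 1.33, 0.60 and 0.57 on the log2 scale.

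The ratio of *Itga6* to *Itga5* FPKM does not depend on how the libraries are scaled. It was chosen after the values were seen and is given without a test. In BAT siCtrl it was 0.0319, 0.03304 and 0.0276 at d0 and 2.81, 3.24 and 2.37 at d3, on average a 90.6-fold increase. In BAT siH19 it was 0.0317, 0.0371 and 0.0345 at d0 and 1.36, 1.33 and 1.38 at d3, a 39.5-fold increase, and the d3 values lay 2.05-fold below those of siCtrl with no overlap. In vWAT it was 0.139, 0.137 and 0.161 at d0 and 1.002, 0.909 and 1.02 at d3 in siCtrl, and 0.128, 0.118 and 0.104 at d0 and 0.944, 0.7796 and 0.834 at d3 in siH19, increases of 6.72-fold and 7.29-fold. In BAT d3, *Itga5* made up 15.5% of summed alpha subunit FPKM with siCtrl and 24.5% with siH19, *Itgav* 7.799% and 12.3%, and *Itga6* 43.02% and 33.3%.

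**Figure D4:**
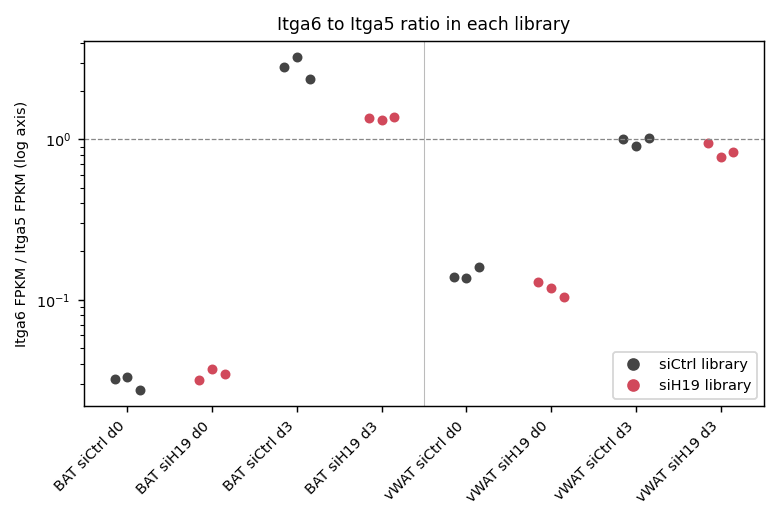
Ratio of *Itga6* to *Itga5* FPKM (log axis) in each of the 24 libraries, with siCtrl in grey, siH19 in red and a dashed line at 1. The BAT d3 libraries lie above 1, at 2.37 to 3.24 with siCtrl and 1.33 to 1.38 with siH19, and the vWAT d3 libraries lie near 1 (0.78 to 1.02).

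BAT and vWAT cells differed in their integrins before differentiation. All BAT libraries carry the label series MB-3 and all vWAT libraries MB-4, so that depot and label series cannot be told apart. In siCtrl d0, 23 genes were tested, of which 7 were higher and 9 lower in BAT, against 31.2% of 13139 genes (10.2% higher, 21.0% lower). Scaling matters here, since the median log2 fold change of all genes was -0.13 as deposited and 0.04 with TMM scaling, which turned the split of all genes from 1343 higher and 2753 lower to 2156 and 1705. It called 7 integrins and cadherins higher and 8 lower, having lost *Itga9*.

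*Itga1* was higher in BAT precursors, at 19.5, 20.0005 and 20.2 FPKM against 3.17, 2.96 and 3.601 in vWAT (6.14-fold, log2 fold change 2.30, SE 0.08, adjusted p = 3e-06). *Cdh22* (2.97 to 3.39 against 0.3805 to 0.537 FPKM, log2 fold change 1.54), *Cdh13* (T-cadherin, a receptor for adiponectin, 2.23 to 2.65 against 0.822 to 1.07, 0.84), *Itgb3* (0.79), *Itgav* (0.56), *Itga11* (0.55) and *Itgb1* (0.53) were also higher in BAT. Higher in vWAT were *Itga3* (1.02, 1.93 and 0.726 against 13.4, 12.2 and 13.996 FPKM, log2 fold change -2.71, SE 0.19, adjusted p = 7.2e-05) and *Itga6* (9.96, 10.7 and 8.78 against 47.5, 49.7 and 54.4, 5.15-fold, log2 fold change -2.25, SE 0.09, adjusted p = 5.4e-06), both laminin-binding. *Itgb8* (0.354 to 0.591 against 3.87 to 4.25 FPKM, -1.80), a partner of alphaV in activating latent TGF-beta, *Cdh3* (P-cadherin, 0.125 to 0.156 against 2.26 to 2.97, -1.66), *Itga10* (0.345 to 0.5999 against 3.34 to 3.99, -1.66) and *Cdh2* (11.002, 12.3 and 10.5 against 29.2, 28.7 and 29.5, -1.30) were higher in vWAT as well. *Itgb2* (-0.88), *Itgam* (-0.82) and *Itga9* (-0.55) were also called higher in vWAT. *Itgb8*, *Cdh22*, *Itga10* and *Cdh3* passed the filter only through 1 depot. *Itga5* was at 312 to 323 in BAT and 338 to 363 FPKM in vWAT, apart but short of 1.3-fold (-0.13). The depots were apart for 58.8% of all genes tested.

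Markers of the mesothelium that covers visceral fat moved with these depot differences. The summed FPKM of 8 mesothelial or epithelial markers was 5.17 to 5.98 in BAT and 149 to 180.2 in vWAT at d0, 7 of the 8 reached 1 FPKM in vWAT against 1 in BAT, and *Upk3b* and *Krt8* were listed at 0 in all 3 BAT siCtrl d0 libraries. *Cdh16* was listed at 0 in all 12 BAT libraries and at 0.494 to 1.09 FPKM in vWAT siCtrl d0. The part of mesothelial cells in the vWAT levels of *Itga3*, *Itga6*, *Itgb8* and *Cdh3* was not tested. Other markers differed too, against 10.2% of all genes higher in BAT and 21.0% lower. Macrophage markers were called lower in BAT for 10 of 11 tested, and precursor markers for 4 of 6, with 2 higher. Mural markers were called higher in BAT for 4 of 5, and skeletal muscle markers for 4 of 5, with 1 lower. Their part in the depot differences was not tested either.

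At d3, 20 genes were tested between the siCtrl cells of the depots, with 4 higher and 15 lower in BAT, against 48.6% of 13120 genes (16.5% higher, 32.1% lower). With TMM scaling the split of all genes was 3096 higher and 3080 lower instead of 2162 and 4216, and the median moved from -0.16 to 0.01, while the same numbers of integrins and cadherins were called. *Itga6* was now higher in BAT, at 72.6, 68.3 and 66.7 against 50.2, 48.03 and 50.9 FPKM (log2 fold change 0.47, SE 0.05, adjusted p = 0.00018), as were *Itga7* (32.2, 32.5 and 30.5 against 22.4, 22.2 and 22.3, log2 fold change 0.49, SE 0.05, adjusted p = 0.00013), *Cdh13* (0.71) and *Itgad* (1.99). Lower in BAT were *Itgb2* (-1.52), *Itgam* (-1.44), *Itga3* (-1.33), *Cdh11* (18.1, 20.8 and 17.9 against 50.4, 43.9 and 47.4 FPKM, -1.28), *Itgb5* (24.5, 22.8 and 31.6 against 64.8, 71.6 and 57.5, -1.27), *Itga5* (25.8, 21.1 and 28.1 against 50.1, 52.8 and 49.9, -1.01) and *Itgb1* (-0.66). *Itgad*, *Itgb8*, *Cdh5* and *Cdh3* passed the filter only through 1 depot. Cell type markers differed as well. The precursor marker sum was 713 to 814 FPKM in BAT and 2237 to 2329 in vWAT, with 6 of 6 called lower in BAT. Macrophage markers were called lower in BAT for 10 of 10 tested, mesothelial or epithelial markers for 6 of 7, and all 7 adipocyte markers were called higher. The part of these shifts in the integrin and cadherin differences was not tested.

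Members that mark other cell types were low. *Cdh5* (VE-cadherin of endothelium) was at 1.69 to 2.43 FPKM in BAT siCtrl d0 and 0.593 to 0.978 at d3 (log2 fold change -0.85, SE 0.14, adjusted p = 0.0011), and at 1.72 to 2.48 and 2.47 to 2.52 in vWAT. The sum of 9 endothelial markers was 30.3 to 34.4 in BAT siCtrl d0 and 35.3 to 42.1 at d3, while 5 of the 9 reached a mean of 1 FPKM at d0 and 2 at d3. Of the 5 tested between these days 3 were called lower (*Pecam1*, *Emcn* and *Esam*) and 1 higher (*Egfl7*), against 35.3% and 29.9% of all genes. The part of endothelial cells in the level of *Cdh5* was not tested. *Itgb2*, the beta subunit of leukocyte integrins, was at 3.08, 4.02 and 3.68 FPKM in BAT siCtrl d0, 1.35, 1.95 and 1.14 at d3 (log2 fold change -0.90, SE 0.15, adjusted p = 0.0012) and 0.873, 0.968 and 0.648 in siH19 d3, where it was not called against siCtrl (log2 fold change -0.43, SE 0.15, adjusted p = 0.11). *Itgam*, the alpha subunit of macrophages, was at 0.881 to 1.07 in BAT siCtrl d3, 0.414 to 0.779 in siH19 d3, 4.12 to 4.998 in vWAT siCtrl d3 and 5.02 to 5.25 FPKM in vWAT siH19 d3. The sum of 11 macrophage markers was 158 to 193, 95.9 to 110.0, 645 to 701 and 714 to 811 FPKM in these groups, and the part of macrophages in the levels of *Itgb2* and *Itgam* was not tested.

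*Itgad* (chr7:128154376-128223816, plus strand), which encodes the alphaD subunit of leukocytes, behaved unlike them. It was at 0.239, 0.266 and 0.366 FPKM in BAT siCtrl d0 and 0.3202, 0.323 and 0.437 in siH19 d0. At d3 it was at 4.699, 3.79 and 4.54 with siCtrl and 7.55, 10.7 and 8.01 with siH19 (2.02-fold, log2 fold change 0.86, SE 0.14, adjusted p = 0.011). In vWAT no library exceeded 0.436 FPKM. The change from d0 to d3 was called in BAT siCtrl (log2 fold change 2.05, SE 0.10, adjusted p = 2.7e-06) and in BAT siH19 (log2 fold change 2.83, SE 0.14, adjusted p = 2.9e-06), where the gene passed the filter through the d3 libraries alone and so had to differ. The gene of its known partner, *Itgb2*, fell over the same days, lymphocyte markers summed to at most 0.610 FPKM in any library, and the macrophage marker sum was lower in BAT siH19 d3 than in siCtrl d3. Which cells held the *Itgad* RNA was not tested. *Itgax*, its neighbour on chromosome 7 and named here after its values were seen, was listed at 0 in all 3 BAT siCtrl d3 libraries. The RNA *4931431B13Rik* lies antisense within *Itgad* (chr7:128192050-128203328) and moved with it, at 0.322, 0.163 and 0.402 FPKM in BAT siCtrl d0, 1.62, 1.52 and 1.84 in siCtrl d3 and 2.97, 2.69 and 2.93 in siH19 d3 (log2 fold change 0.54, SE 0.09, adjusted p = 0.013). *Cox6a2*, also antisense within it, did not (4.19 ± 0.338 in siCtrl and 4.16 ± 0.736 FPKM in siH19 at d3). The sample labels name a directional kit and the study's methods a kit without that word, and whether the counting used strand is not given in the sources used here, so the reads of *Itgad* and *4931431B13Rik* may not be separate.

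**Figure D5:**
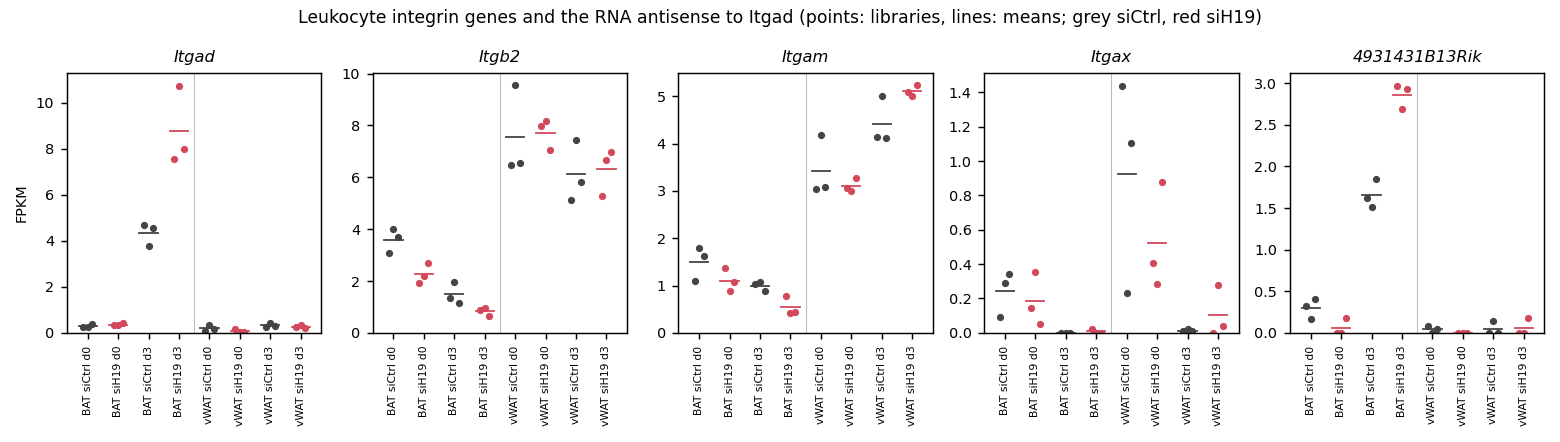
FPKM (linear axes from 0, scaled separately for each gene) of *Itgad*, *Itgb2*, *Itgam*, *Itgax* and of *4931431B13Rik*, the RNA antisense to *Itgad*, in each of the 24 libraries (points) with group means (lines), siCtrl in grey and siH19 in red. *Itgad* and *4931431B13Rik* stand out in BAT d3 and are highest with siH19 (7.55 to 10.7 and 2.69 to 2.97 FPKM), whereas *Itgb2* and *Itgam* are highest in vWAT.

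Genes that act around the integrins were read from 3 lists. Of 26 genes of the adhesion plaque, which ties integrins to actin, 23 were tested in BAT d3 and 5 were higher with siH19, none lower, against 6.39% higher and 2.18% lower of all genes tested, namely *Actn1* (25.1 FPKM in siCtrl and 47.99 in siH19, log2 fold change 0.91, SE 0.12, adjusted p = 0.0058), *Zyx* (46.9 and 86.2, log2 fold change 0.87, SE 0.08, adjusted p = 0.0029), *Tgfb1i1* (0.61), *Flna* (0.57) and *Lims2* (0.54). They encode an actin crosslinker, the plaque proteins zyxin and Hic-5, filamin A and a PINCH adaptor. The median log2 fold change of the 23 was 0.24, against 0.05 for all genes. From d0 to d3 in BAT siCtrl 24 were tested, 19 fell and 2 rose, against 35.3% and 29.9% of all genes, with falls for *Actn1* (-3.54) and *Zyx* (-3.26).

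Of 23 non-collagen integrin ligands 18 were tested in BAT d3, and 8 were higher with siH19 and none lower, against 6.39% and 2.18% of all genes, with a median log2 fold change of 0.50 against 0.05 for all genes. Among them were *Cyr61* (log2 fold change 0.92, SE 0.09, adjusted p = 0.0029), *Spp1* (osteopontin, log2 fold change 0.84, SE 0.17, adjusted p = 0.02), *Npnt* (0.59), *Icam1* (0.56), *Fbln5* (0.54) and the laminin chains *Lamb2* (0.46) and *Lama5* (0.43). *Fn1*, the ligand of alpha5, was at 263, 193 and 210.5 FPKM in siCtrl and 429, 336 and 228 in siH19 and was not called (log2 fold change 0.54, SE 0.23, adjusted p = 0.17). *Fn1* itself fell from 1149 at d0 to 222 FPKM at d3 in BAT siCtrl (log2 fold change -2.37, SE 0.13, adjusted p = 4e-06), and *Tnc*, a ligand of alpha9, from 484 to 14.1 (-5.02). Of 17 catenins and junction partners 10 were tested in BAT d3, and *Nectin1* was higher with siH19 (log2 fold change 0.81, SE 0.14, adjusted p = 0.013). In vWAT d3 none of the 25 plaque genes, 20 ligands or 10 junction genes tested was called by limma, where only 0.0305% of all 13097 genes were called.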

How the data were processed

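RNA of 24 libraries was enriched for poly-A RNA and prepared with an NEBNext Ultra II kit, the directional version per the labels, while the study's methods name the kit without that word. The authors mapped reads to GRCm38 (GRCm38.p5 in the submitters' processing notes) with TopHat2 2.0.10 and deposited one FPKM value per gene and library, computed with Cufflinks (2.2.1 in those notes). No fold changes or p-values stood in the table, and 0 of its value columns lacked a sample. Whether fragments were counted by strand is not given in the sources used here. Counts were not used here, so depth is known only relative to other libraries, and neither counting intervals nor detection limits are given. Replicate libraries correlated at 0.974 to 0.981 (Pearson, log2 scale, across genes).

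From these, log2(FPKM + 1) was tested with limma 3.58.1 in R 4.3.3 (trended variance, moderated test) on the libraries of each comparison alone, for genes with at least 1 FPKM in at least 3 of them. To be called, a gene needed an adjusted p (Benjamini-Hochberg, across every gene tested) below 0.05 and a fold change of at least 1.3, and an interaction at the adjusted p alone. The test of siH19 in BAT d3 was checked on simulated data, and the tests of the other comparisons and of the interactions were not. Groups were taken from the sample labels. Members and lists were chosen with earlier results of these data known. Values per library are given for members called with siH19, with a group mean of at least 10 FPKM, among the 5 largest rises or falls between days or depots, or known from other cell types at 1 FPKM in 3 libraries. A pseudocount of 0.1, no filter, trimmed mean of M-values (TMM) scaling, written out in R, no minimum fold, all 24 libraries in 1 fit, a replicate block and leaving out each library were tried.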

Additional observations from a re-analysis of the deposited data

Results flagged for a closer look

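These values are differences between 2 effects on the log2(FPKM + 1) scale that passed limma's test of the difference itself (adjusted p under 0.05), and no explanation was tested for any of them. They cover the effect of siH19 in BAT against vWAT at d3, the effect of siH19 in BAT at d3 against d0, and the change from d0 to d3 in BAT against vWAT siCtrl cells. All 3 use the same BAT siCtrl d3 libraries. *Itgad* reached 1 FPKM only in the BAT d3 libraries, so that its 3 differences are set against values near the floor. In the comparison of days between depots, *Itgad* and *Cdh22* passed the filter only through BAT siCtrl d3 and BAT siCtrl d0, so that they had to differ.

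The effect of siH19 at d3 was higher in BAT than in vWAT by 1.14 for *Itgav*, 0.95 for *Itgad*, 0.88 for *Itga5*, 0.75 for *Cdh2*, 0.48 for *Cdh11* and 0.46 for *Itgb1*, and the difference was -0.55 for *Itgam*. In BAT, the effect of siH19 was higher at d3 than at d0 by 0.86 for *Itgav*, 0.78 for *Itgad*, 0.63 for *Itga5*, 0.42 for *Itgb1* and 0.36 for *Cdh11*, and the difference was -0.51 for *Itga6*. The effect on *Itga6* was 0.41 at d0 and -0.10 at d3, neither being called.

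The change from d0 to d3 in siCtrl cells was more positive in BAT for the laminin-binding subunits *Itga6* (2.72), *Itga3* (1.38) and *Itga7* (0.82), and for *Itgad* (1.89), *Itga10* (1.01), *Itgb8* (0.85), *Cdh2* (0.74) and *Cdh3* (0.45). It was more negative in BAT for *Itga1* (-2.55), *Itga11* (-1.46), *Cdh22* (-1.46), *Itgb3* (-1.32), *Itgb1* (-1.20), *Itgav* (-1.18), *Cdh11* (-1.13), *Itgb5* (-1.10), *Cdh5* (-1.08), *Itga5* (-0.88), *Itgb2* (-0.64) and *Itgam* (-0.62). For *Itgb8*, *Cdh3* and *Itga10* the vWAT level fell from means of 3.998, 2.603 and 3.62 FPKM at d0 to 1.18, 1.39 and 1.13 at d3, while the BAT level was below 1 FPKM on both days. *Itga3* likewise fell in vWAT, from a mean of 13.2 to 4.38 FPKM, and was at 1.22 and 1.16 in BAT, so it did not rise there. With a pseudocount of 0.1 the difference was 0.48 for *Itgb8* (adjusted p = 0.23) and 0.02 for *Cdh3* (0.97), neither being called. The call of *Itgb2* was lost in 8 of the 12 fits without 1 library and without a filter (adjusted p over all settings = 0.00322 to 0.11).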

How the results depend on the processing

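Counts of members called stayed within 1.5 times of the values given in 69 of 75 comparisons with an alternative setting, and no direction reversed. The exceptions were BAT d0 with siH19, where 1 member became 0 without a filter, with TMM scaling and with the replicate block, 3 without a minimum fold and 2 with all 24 libraries in 1 fit, and vWAT d0 with siH19, where 1 became 0 with the replicate block. Without 1 library, the count ranged from 4 to 5 in BAT d3 with siH19 (6 with all), from 0 to 0 in BAT d0 (1), from 0 to 0 in vWAT d3 (0) and from 0 to 1 in vWAT d0 (1). It ranged from 13 to 15 between days in BAT siCtrl (16), 11 to 16 in BAT siH19 (17), 15 to 16 in vWAT siCtrl (16) and 16 to 17 in vWAT siH19 (17), from 13 to 16 between depots at d0 (16) and 16 to 18 at d3 (19), and from 5 to 7, 5 to 7 and 18 to 20 in the interactions of depot and siRNA (7), day and siRNA (6) and depot and day (20). Of 142 values of called members, 107 were tested and called in every setting, 22 could not be tested in some setting without 1 library because the filter needs 3, and 13 lost their call in some setting. With 2 libraries in a group, that group is assumed to vary like the other. Same-numbered libraries did not visibly deviate together (correlations of -0.113 to 0.062), and the replicate number was not used as a pairing in the main test. Deviations from a mean of 3 libraries cannot exclude that same-numbered libraries share an origin. With the block 5 members instead of 6 were called in BAT d3. A gene near 1 FPKM is imprecise at this depth, as FPKM without counts give no error per library.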

Other observations

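*Itgb4*, the beta subunit with which alpha6 forms the laminin receptor of hemidesmosomes, was at or below 1.64 FPKM in all 24 libraries, while *Itga6* was at 8.78 FPKM or more in each. In BAT siCtrl d3 *Itgb4* was at 0.08704, 0.428 and 1.06 FPKM beside *Itga6* at 72.6, 68.3 and 66.7 and *Itgb1* at 155, 141 and 149.8. *Itgb6*, an epithelial partner of alphaV, was at 0.233 to 3.08 FPKM in the 12 BAT libraries and at 0.0848 or less in the 12 vWAT libraries. The highest *Itgb6* value was in BAT siH19 d0 library 1 (3.08 FPKM, against 0.846 and 0.947 in the other libraries of its group), which also held the highest *Itgb4* value (1.64). These genes were named after their values were seen, and no test was made of them.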
